A study of Mus musculus with 12 samples.

Results

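The family of receptors for interleukin-1 (IL-1) and interleukin-18 (IL-18) was described in CD4+ T cells on 12 Affymetrix Mouse Genome 430 2.0 arrays. The 7 genes listed for it were Il1r1, Il1r2, Il1rap, Il1rl1, Il18r1, Il18rap and Il1rn, and their members were every probe set that the array's annotation assigns to one of these genes alone. This gave 14 probe sets for 6 genes, of 18193 genes with a probe set of their own on the array. Il1rl1 had no such probe set in the annotation used and was not analysed here. The members of Il1r1 were 2 probe sets, of Il1rap 5, of Il18rap 2 and of Il1rn 3, while Il1r2 and Il18r1 had 1 each.

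IL-1 binds the receptor chain encoded by Il1r1, which then recruits the accessory chain encoded by Il1rap and signals through the adaptor Myd88. Il1r2 encodes a decoy that binds IL-1 without signalling, and Il1rn encodes the secreted antagonist that occupies the IL-1 receptor without recruiting the accessory chain. IL-18 uses a pair of its own, the binding chain Il18r1 and the accessory chain Il18rap, and is known as a partner of IL-12 in eliciting IFN-γ, while IL-1 is known to favour IL-17-producing (Th17) cells.

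There were 4 groups of 3 arrays, all from female mice. SKG cells were FR4-negative CD4+ T cells from lymph nodes of SKG mice, a strain on the BALB/c background known for a point mutation in Zap70, a kinase of the T cell receptor, and for spontaneous arthritis. BALB cells were the corresponding cells of BALB/c mice, and both groups were 40 weeks old and stimulated with PMA and ionomycine. FR4 is a folate receptor found on many regulatory T (Treg) cells. BALB replicate 1 has other labels, namely spleen plus lymph node as its tissue and CD4+ cells with no FR4 sort. The third group, the IFN-γ KO transfer, held spleen CD4+ T cells of RAG2 KO BALB/c hosts, which lack their own lymphocytes, 7 days after they received CD4 T cells of IFNg KO BALB/c mice. The fourth was labelled as IL-6 KO CD4 T cells in hosts that lacked both IL-6 and RAG2. The labels give an age of 7 weeks for both transfer groups and no stimulation. Donor and host genotype differ together between them, and no transfer of unmodified cells was analysed here. The labels do not give the animals behind the replicates, so the spread that p-values measure here may be technical.

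The genes deleted by the labels were checked first. Ifng was 9.60, 8.87 and 9.78 on the log2 scale in the IFN-γ KO transfer, against 13.58, 13.59 and 13.54 in the IL-6 KO-labelled transfer (limma adjusted p = 0.00185). Il6 was 4.56, 4.77 and 6.84 in the IFN-γ KO transfer, against 5.67, 5.85 and 8.03 in the IL-6 KO-labelled transfer, so it was not lower there and does not check that label. All 6 T cell markers measured were above the floor for testing in both comparisons, and none of 3 NK cell markers was. Median deposited intensities ran from 15.7 to 27.7 over the arrays. Replicate 3 of either transfer group stood apart in RNA 3'/5' signal ratios, with Gapdh at 7.99 in the IFN-γ KO transfer and 9.33 in the IL-6 KO-labelled transfer, against 2.42 to 2.84 in their other arrays. Transfer results are therefore also given for replicates 1 and 2 only, an alternative added on seeing these data.

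Of the members, Il1r2, Il1r1, Il18r1 and Il18rap lie in this order in a row on mouse chromosome 1, with Il1rl2 and Il1rl1 between Il1r1 and Il18r1. Il1rn lies on chromosome 2 and Il1rap on chromosome 16. The 4 listed genes measured in the chromosome 1 row had the highest differences of the 6 measured listed genes in SKG cells. The sequence around their starts is shown for that reason. Il1rl2, which lies among them and is not a listed gene, differed by -0.15 without a call. The sequences are RefSeq promoter windows on GRCm38.p6, + strand, each running over 300 bases, with 13 windows matched to the 7 listed genes. Capitals mark matches on either strand to 4 motifs that were picked after the data were seen: TGANTCA (AP-1), TTCNNNGAA (STAT), AGGTCA (the core of the ROR response element) and GGTGTGA (the core of the T-box element).
Il1r2, chr1:40085843-40086142: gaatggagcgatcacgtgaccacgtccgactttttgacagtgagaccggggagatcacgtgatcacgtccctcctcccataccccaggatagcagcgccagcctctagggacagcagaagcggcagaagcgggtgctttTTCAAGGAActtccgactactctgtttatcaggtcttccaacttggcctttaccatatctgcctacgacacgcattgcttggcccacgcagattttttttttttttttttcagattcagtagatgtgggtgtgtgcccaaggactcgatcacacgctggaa
Il1r1, chr1:40224830-40225129: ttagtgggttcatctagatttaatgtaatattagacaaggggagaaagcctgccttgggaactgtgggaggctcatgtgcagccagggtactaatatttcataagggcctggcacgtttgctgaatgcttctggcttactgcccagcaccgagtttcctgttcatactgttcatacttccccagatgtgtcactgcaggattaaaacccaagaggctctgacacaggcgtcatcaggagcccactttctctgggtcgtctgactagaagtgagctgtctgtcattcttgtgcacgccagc
Il1r1, chr1:40266336-40266635: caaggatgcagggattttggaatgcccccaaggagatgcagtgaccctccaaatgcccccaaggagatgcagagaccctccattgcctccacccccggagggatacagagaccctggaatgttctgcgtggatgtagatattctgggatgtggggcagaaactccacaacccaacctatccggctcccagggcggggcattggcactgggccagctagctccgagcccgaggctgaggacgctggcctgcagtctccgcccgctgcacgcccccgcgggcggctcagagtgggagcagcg
Il18r1, chr1:40465756-40466055: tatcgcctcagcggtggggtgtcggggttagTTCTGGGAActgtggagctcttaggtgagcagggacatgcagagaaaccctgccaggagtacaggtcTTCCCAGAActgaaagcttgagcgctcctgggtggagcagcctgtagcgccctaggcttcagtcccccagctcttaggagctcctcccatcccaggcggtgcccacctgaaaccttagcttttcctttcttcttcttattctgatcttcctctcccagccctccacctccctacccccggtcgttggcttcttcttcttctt
Il18rap, chr1:40515112-40515411: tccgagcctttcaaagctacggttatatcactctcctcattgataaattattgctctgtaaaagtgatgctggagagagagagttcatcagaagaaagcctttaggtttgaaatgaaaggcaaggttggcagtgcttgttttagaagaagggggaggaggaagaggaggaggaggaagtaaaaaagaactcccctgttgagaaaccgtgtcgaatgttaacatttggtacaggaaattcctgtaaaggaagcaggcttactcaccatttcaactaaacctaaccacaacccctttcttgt
The STAT motif matched the Il1r2 window once, at 111 bases before the start, and the Il18r1 window shown at 219 and 152 bases before it. Il18r1 has 3 windows, and the one shown was picked because it holds these matches: the other two, at chr1:40465302-40465601 and chr1:40465371-40465670, held no match to any of the 4 motifs. The motif is held by 8.3% of 32851 promoter windows of the same length. The 2 Il1r1 windows and the Il18rap window held no match to any of the 4 motifs, which says only that these letters are not in these windows. Of the windows not shown, 1 of 3 of Il1rn held a TGANTCA and an AGGTCA match, 1 of 2 of Il1rl1 held an AGGTCA match, and the rest, that of Il1rap included, held none. The shares of all windows with a match were 7.8% for TGANTCA, 16.3% for AGGTCA and 4.0% for GGTGTGA.

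Levels below are log2(intensity + 16) after quantile normalization of all 12 arrays, and differences are on the same scale, which understates the change of dim probe sets. Tested were probe sets with a 6-array mean in the top part of all probe sets, above the lowest 40%, which set a floor of 4.74 between SKG and BALB and 4.73 between the transfer groups. Of the 14 members 11 were tested in each comparison. The 3 others, the second Il1r1 probe set (1459777_at) and 2 of Il1rap (1442614_at and 1439697_at), had means under the floor in both comparisons.

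SKG cells held more of both IL-1-binding receptors and of both IL-18 receptor chains than BALB cells. Il1r1 rose by 3.59 on the log2 scale, Il18r1 by 2.98 and Il1r2 by 2.43, and Il18rap and 1 Il1rn probe set rose less. The order of Il1r1, Il18r1 and Il1r2 depends on the added constant, since with 64 in place of 16 Il1r1 was at 2.20, Il18r1 at 2.35 and Il1r2 at 2.28. The accessory chain Il1rap gave no call. Of 11 members tested 6 rose and 0 fell (limma adjusted p under 0.05), where 10.3% of all 27022 probe sets rose and 9.89% fell. The median difference of the 11 was 1.34, against 0.00 over all probe sets tested. That count includes Il1r1, whose BALB mean lay under the floor, so that it was tested only because of its SKG level.

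**Figure D1:**
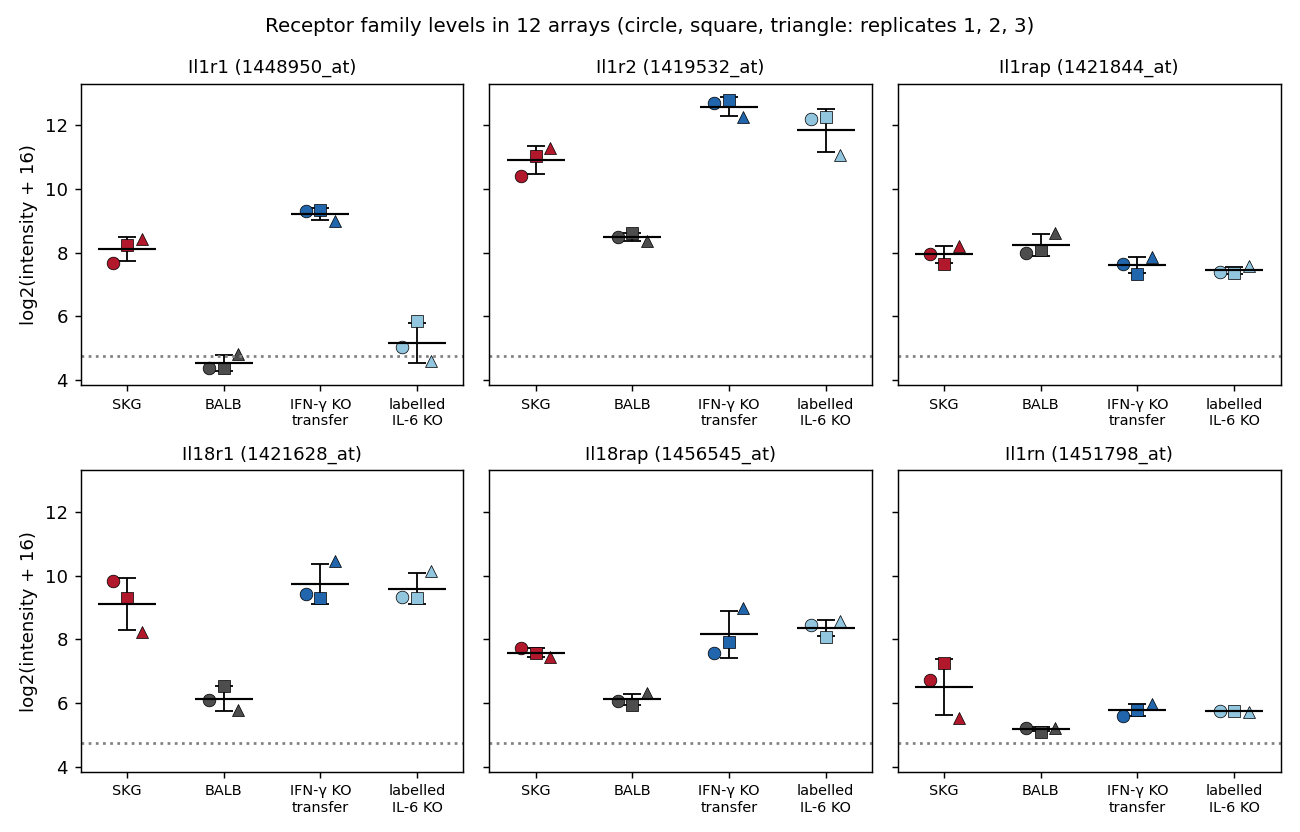
Level of the brightest probe set of each of the 6 measured genes in every array, as log2(intensity + 16) on the vertical axis, by group on the horizontal axis. Points are arrays, with a circle, square and triangle for replicates 1, 2 and 3, lines are group means with SD bars (n = 3), and the dotted line is the floor over all 12 arrays. Il1r1 was high in SKG cells and in the IFN-γ KO transfer and near the floor in BALB cells, while Il18r1 was low in BALB cells alone.

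Il1r1, the signalling receptor for IL-1, was 7.67, 8.25 and 8.42 in SKG cells, against 4.38, 4.37 and 4.82 in BALB cells. The deposited intensities behind these levels were 161.2, 266.3 and 374.8 in SKG cells, against 3.7, 3.6 and 18.5 in BALB cells. Every SKG array was above every BALB array by a wide margin, and only BALB replicate 3 was over the floor. The mean was 8.11 ± 0.39 in SKG cells and 4.53 ± 0.26 in BALB cells (SD, n = 3 each), a rise of 3.59 ± 0.24 (SE, limma adjusted p = 6.14e-05). Because BALB intensities are so low, the size depends on the added constant: it was 5.10 with 1 and 2.20 with 64 in place of 16, and the call held in all 19 alternatives.

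Il1r2, the decoy, was 10.41, 11.04 and 11.27 in SKG cells, against 8.48, 8.61 and 8.36 in BALB cells. The groups did not overlap, and the lowest SKG array was well above the highest BALB array. Il1r2 rose by 2.43 ± 0.22 (SE, limma adjusted p = 0.000234), and its normalized intensity averaged 1967.1 in SKG cells and 341.8 in BALB cells. Transcripts of the signalling IL-1 receptor and of its decoy were both higher in the same SKG cells.

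Il1rap, the accessory chain that IL-1 receptor signalling shares with other receptors of the family, was 7.96, 7.66 and 8.21 in SKG cells, against 7.995, 8.09 and 8.62 in BALB cells (1421844_at). These arrays overlapped. The difference was -0.29, with a 95% interval from -0.80 to 0.21 (limma adjusted p = 0.414). The other 2 tested probe sets of Il1rap differed by -0.08 and -0.18 (limma adjusted p = 0.823 and 0.641), also with overlapping arrays. The intervals of all 3 end at or under 0.35, well below the change of Il1r1.

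Il1rn, the secreted antagonist, was read by 3 probe sets that did not give the same result. On 1451798_at it was 6.72, 7.27 and 5.53 in SKG cells, against 5.22, 5.10 and 5.20 in BALB cells. SKG replicates 1 and 2 were high, while replicate 3 was only slightly above the BALB arrays. This probe set rose by 1.34 ± 0.38 (SE, limma adjusted p = 0.0352), a call lost in 8 of 19 alternatives, among them no filter (0.0868), no normalization (0.0514), no intensity trend (0.0509) and leaving out SKG replicate 1 (0.123) or 2 (0.118), BALB replicate 1 (0.0858), 2 (0.0883) or 3 (0.0703). On 1425663_at the difference was 0.62 ± 0.26 (SE, limma adjusted p = 0.128) with groups that did not overlap. On 1423017_a_at it was -0.10 (limma adjusted p = 0.811).

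Il18r1, the chain that binds IL-18, was 9.82, 9.31 and 8.23 in SKG cells, against 6.11, 6.54 and 5.77 in BALB cells. The groups did not overlap, although SKG replicate 3 was lower than the other SKG arrays. Il18r1 averaged 9.12 ± 0.81 in SKG cells and 6.14 ± 0.39 in BALB cells (SD, n = 3 each) and rose by 2.98 ± 0.37 (SE, limma adjusted p = 0.00102). On the linear scale its normalized intensity averaged 596.5 in SKG cells and 56.1 in BALB cells, a ratio of 10.6.

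Il18rap, the accessory chain of the IL-18 receptor, rose on both of its probe sets. On 1456545_at it was 7.74, 7.56 and 7.45 in SKG cells, against 6.07, 5.95 and 6.31 in BALB cells. On 1421291_at it was 7.73, 8.02 and 6.38 in SKG cells, against 5.74, 6.09 and 5.15 in BALB cells. Neither probe set overlapped between the groups, and on 1421291_at replicate 3 was the lowest array of both groups. The rises were 1.47 ± 0.18 (SE, limma adjusted p = 0.001) and 1.72 ± 0.41 (SE, limma adjusted p = 0.0175). The call of 1421291_at was lost without SKG replicate 1 (0.076), SKG replicate 2 (0.0711) or BALB replicate 3 (0.0523), and that of 1456545_at held in all 19 alternatives.

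The SKG calls of Il1r1, Il1r2, Il18r1 and Il18rap 1456545_at also held without BALB replicate 1, the array with other labels, at 3.52, 2.43, 2.97 (limma adjusted p = 0.000627, 0.00216 and 0.00673) and 1.45 (0.00813). Without that array 5 of 11 members rose, where 1667 of all 27022 probe sets tested rose. With replicates 1 and 2 only 6 of 12 members rose, where 4542 of 27022 probe sets did. Other measures separated the same groups. Treg markers summed to 13553 to 23024 intensity units in SKG arrays and to 5030 to 6377 in BALB arrays. All 5 of them rose, where 10.3% of all probe sets did. Foxp3, the regulator of Treg cells, rose by 1.76 ± 0.21 and Ikzf2 by 2.74 ± 0.31 (SE, limma adjusted p = 0.000919 and 0.000603). The others, Il2ra, Ctla4 and Tnfrsf4, are not confined to Treg cells and rose by 0.985, 2.52 and 1.14. SKG replicate 3 had the lowest Treg sum of its group and also the lowest Il18r1, Il18rap (both probe sets) and Il1rn (1451798_at) levels, but the highest Il1r1 and Il1r2 levels. The part of Treg cells in the receptor results was not tested, and in such bulk samples fewer cells of a type and less RNA per cell cannot be told apart.

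Markers of other cell types that can carry these receptors were measured beside them. The 6 neutrophil markers measured summed to 46 to 51 in SKG arrays and 57 to 96 in BALB arrays, with 0 of 3 tested called. The 7 macrophage markers summed to 140 to 209 in SKG arrays and 170 to 227 in BALB arrays, with 0 of 6 tested called. The 6 mast cell and basophil markers summed to 194 to 242 in SKG arrays and 358 to 419 in BALB arrays. Of the 2 tested, Kit, a receptor also found on other cells, was lower in SKG cells. Hdc, the other one tested, differed by 0.495 without a call (limma adjusted p = 0.576). NK cell markers summed to 16 to 36 in SKG arrays and 7 to 31 in BALB arrays, with none of 3 above the floor. CD8 markers summed to 29 to 126 in SKG arrays and 238 to 254 in BALB arrays. Of these 2 genes Cd8b1 was lower in SKG cells, at -2.51 (limma adjusted p = 0.00387). Cd8a went the other way, at 0.81 without a call (limma adjusted p = 0.0806). T cell markers summed to 8085 to 8885 in SKG arrays and 5474 to 6452 in BALB arrays, with 1 of 6, Thy1, called higher. The actin 3'/5' ratio was 1.93 to 2.63 in SKG arrays and 2.95 to 3.98 in BALB arrays, and its part in the receptor results was not tested.

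In the transfer comparison 1 member stood out. Il1r1 was far higher in the IFN-γ KO transfer than in the IL-6 KO-labelled transfer, while the IL-18 receptor chains were high in both. Of 11 members tested 1 rose and 0 fell (limma adjusted p under 0.05), where 0.0259% of 27022 probe sets rose and 0.0185% fell. The 11 had a median difference of 0.12, against 0.00 over all probe sets tested.

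**Figure D2:**
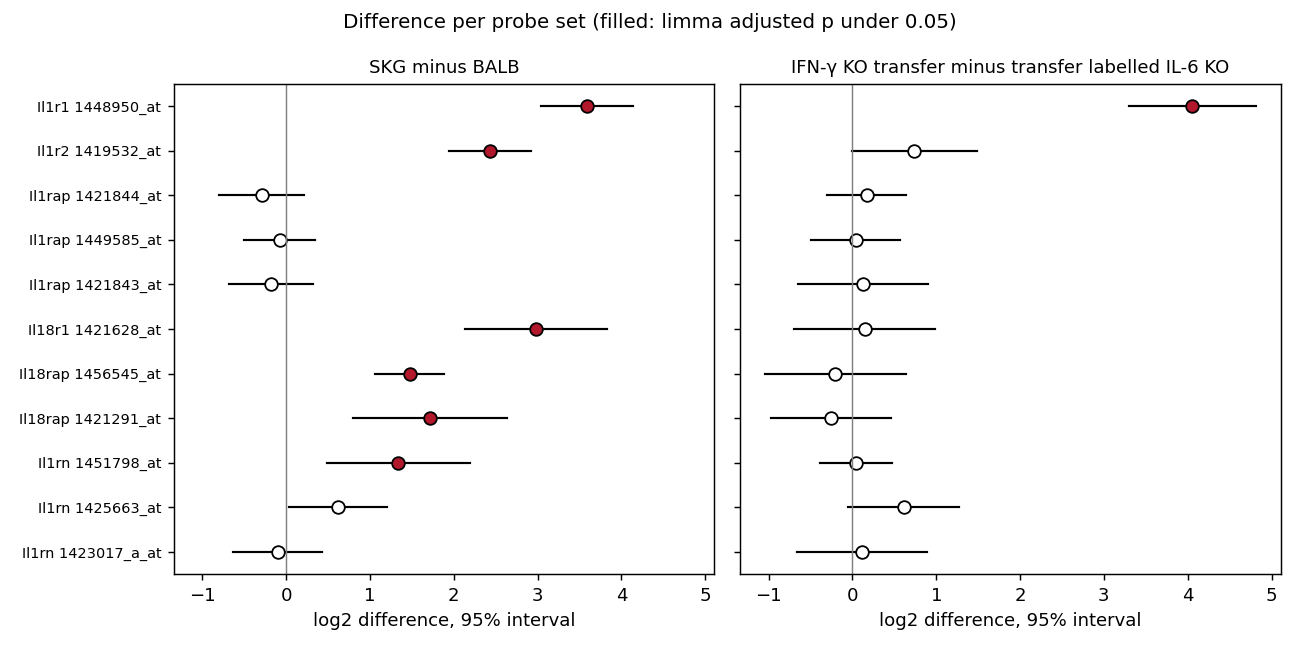
Log2 difference of each of the 11 tested probe sets (points) with its 95% interval (lines), for SKG minus BALB on the left and the IFN-γ KO transfer minus the IL-6 KO-labelled transfer on the right. Filled points passed limma's adjusted p of 0.05: 6 on the left and Il1r1 alone on the right, where the intervals of the other 10 probe sets include 0.

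Il1r1 was 9.31, 9.33 and 9.01 in the IFN-γ KO transfer, against 5.02, 5.86 and 4.60 in the IL-6 KO-labelled transfer. Deposited intensities were 612.4, 609.2 and 440.1 in the IFN-γ KO transfer, against 15.9, 41.2 and 8 in the IL-6 KO-labelled transfer. All arrays of the first group were high, and those of the second were low and spread, with replicate 3 under the floor. Il1r1 averaged 9.21 ± 0.18 in the IFN-γ KO transfer and 5.16 ± 0.64 in the IL-6 KO-labelled transfer (SD, n = 3 each) and rose by 4.06 ± 0.33 (SE, limma adjusted p = 0.0134). Normalized intensities averaged 580.7 in the IFN-γ KO transfer and 22.2 in the IL-6 KO-labelled transfer, a ratio of 26.2. The call was lost with an added constant of 1 (limma adjusted p = 0.051) and without IFN-γ KO replicate 1 (0.106), IFN-γ KO replicate 2 (0.158) or replicate 1 of the IL-6 KO-labelled transfer (0.106), while the difference stayed between 2.92 and 4.93 in all 19 alternatives. With replicates 1 and 2 only it was 3.88 (limma adjusted p = 1.22e-05).

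Il1r2 was 12.71, 12.80 and 12.25 in the IFN-γ KO transfer, against 12.21, 12.28 and 11.07 in the IL-6 KO-labelled transfer. Replicate 3 was the lowest array of both groups, and the groups overlapped, but each array of the IFN-γ KO transfer was above the array of the same number. The difference was 0.74 ± 0.32 (SE, limma adjusted p = 1), with a 95% interval from -0.01 to 1.49. With the replicate number as a block it passed (limma adjusted p = 0.0199), and with replicates 1 and 2 only it was 0.51 (limma adjusted p = 0.00157). With the block 2 members were called in place of 1, and 300 of all probe sets in place of 12.

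Il18r1 was 9.44, 9.32 and 10.47 in the IFN-γ KO transfer, against 9.35, 9.29 and 10.16 in the IL-6 KO-labelled transfer. The groups overlapped, and replicate 3 was the highest array of either group. The difference was 0.15 ± 0.36 (SE, limma adjusted p = 1), with a 95% interval from -0.70 to 0.99. Il18rap differed by -0.20 on 1456545_at (95% interval from -1.05 to 0.64) and by -0.25 on 1421291_at (-0.97 to 0.46), with overlapping arrays on both (limma adjusted p = 1). With replicates 1 and 2 only, 1421291_at was lower by the test, at -0.75 (limma adjusted p = 0.0177). In that fit 2 members rose and 1 fell of 10 tested, where 398 of all 27022 probe sets rose and 327 fell.

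Il1rap was 7.64, 7.33 and 7.85 in the IFN-γ KO transfer, against 7.38, 7.36 and 7.57 in the IL-6 KO-labelled transfer on 1421844_at. Its 3 tested probe sets differed by 0.17, 0.04 and 0.12, and the arrays overlapped on each. Il1rn was 5.59, 5.78 and 5.97 in the IFN-γ KO transfer, against 5.75, 5.75 and 5.73 in the IL-6 KO-labelled transfer on 1451798_at. The 3 probe sets of the antagonist differed by 0.04, 0.61 and 0.11. None of these 6 probe sets of Il1rap and Il1rn was called (limma adjusted p = 1 for each), and the highest upper end of their 95% intervals, for 1425663_at, was 1.27.

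Beside the Il1r1 result, neutrophil markers summed to 69, 289 and 291 in the IFN-γ KO transfer, against 112, 35 and 1341 in the IL-6 KO-labelled transfer. Replicate 3 of the IL-6 KO-labelled transfer had the highest neutrophil sum and the lowest Il1r1 and Il1r2 levels of the 6 arrays. Macrophage markers summed to 233 to 263 in the IFN-γ KO transfer and 183 to 225 in the IL-6 KO-labelled transfer, and Treg markers to 26692 to 29604 in the IFN-γ KO transfer and 24300 to 26516 in the IL-6 KO-labelled transfer. Neither pair of ranges overlapped, with 0 of 6 and 0 of 5 tested markers called, and their part in the Il1r1 result was not tested. Mast cell and basophil markers summed to 276 to 515 in the IFN-γ KO transfer and 136 to 506 in the IL-6 KO-labelled transfer. Among them Kit averaged 8.24 ± 0.43 in the IFN-γ KO transfer and 6.70 ± 0.20 in the IL-6 KO-labelled transfer (SD, n = 3 each). This difference of 1.54 had no call (limma adjusted p = 0.275) and was opposite in sign to that between SKG and BALB cells. The other tested markers of this list, Hdc and Mcpt8, differed by -0.90 and -0.08, also without a call.

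The test of the difference between the comparisons was signed. It took the SKG minus BALB difference and subtracted that of the IFN-γ KO transfer minus the IL-6 KO-labelled transfer. Of 11 members 3 were called with a positive value and 0 with a negative one (limma adjusted p under 0.05). Over all 27022 probe sets 2.42% were called positive and 2.06% negative. The signed value was 2.84 ± 0.58 for Il18r1, 1.69 ± 0.42 for Il1r2 and 1.68 ± 0.42 for Il18rap 1456545_at (SE, limma adjusted p = 0.0161, 0.0391 and 0.0413). For Il18rap 1456545_at it joins a rise of 1.47 in SKG cells and a difference of -0.20, without a call, between the transfer groups. The Il18r1 call was lost without SKG replicate 2 (limma adjusted p = 0.0524), while the Il1r2 and Il18rap calls were lost in 13 and 11 of 23 alternatives. For Il1r1 the comparisons differed by -0.47 ± 0.43, with a 95% interval from -1.39 to 0.45 (limma adjusted p = 0.615), so no difference between them was detected. Il18rap 1421291_at differed by 1.97 (limma adjusted p = 0.0709, or 0.00456 when blocked by replicate number) and Il1rn 1451798_at by 1.30 (0.142, or 0.0443 when blocked). With the block 5 members were called in place of 3, and 4972 of all probe sets in place of 1211.

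**Figure D3:**
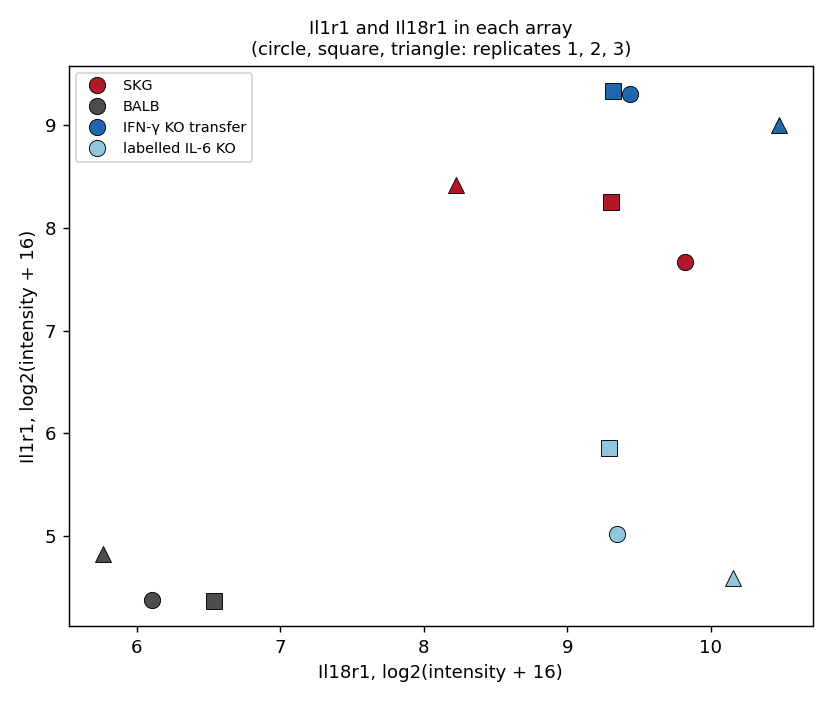
Il1r1 (vertical axis) against Il18r1 (horizontal axis) in each of the 12 arrays, both as log2(intensity + 16), with colours for groups and a circle, square and triangle for replicates 1, 2 and 3. SKG arrays and IFN-γ KO transfer arrays are high in both genes, IL-6 KO-labelled transfer arrays are high in Il18r1 only, and BALB arrays are low in both.

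Set side by side, the groups fall in different orders for the receptors. This is a description without a test. The groups labelled as stimulated and the transfer groups differ in age, labelled stimulation, labelled FR4 sort (except BALB replicate 1), host and tissue together. For Il1r1 the order of means was the IFN-γ KO transfer, SKG, the IL-6 KO-labelled transfer and BALB. The first step was 1.10 and the second 2.96, both without overlap of arrays, and the last was 0.63 with overlap. For Il1r2 and Il18r1 the order was the IFN-γ KO transfer, the IL-6 KO-labelled transfer, SKG and BALB, and only the step down to BALB, of 2.43 and 2.98, was without overlap. Il18rap 1456545_at had its highest mean in the IL-6 KO-labelled transfer, with overlap down to SKG and a step of 1.47 without overlap to BALB. Il1rap 1421844_at had its highest mean in BALB cells, and each of its steps, the largest of 0.33, overlapped.

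Over the 12 arrays the IL-18 receptor chains had the closest patterns of the measured pairs in the family, with a Pearson r of 0.936 between Il18r1 and Il18rap. Il1r2 had r = 0.843 with Il18r1 and 0.664 with Il1r1, and Il1r1 had r = 0.562 with Il18r1. Il1rap ran the other way on 1421844_at, its brightest probe set, at -0.767 with Il1r2 and -0.695 with Il18r1. Correlations of the other Il1rap probe sets were not computed. On 1449585_at its mean was 7.12 in the IFN-γ KO transfer and 7.085 in the IL-6 KO-labelled transfer. That was above its means in SKG cells (6.65) and BALB cells (6.73), so this probe set did not share the pattern. The correlations describe 12 arrays that share 4 groups and their preparations. By the same measure among 12175 named genes above the floor, those closest to Il1r1 were Ctps2 (0.951), Hlf (0.935), Derl3 (0.934), Acpp (0.933) and Pxdc1 (0.925). Those closest to Il1r2 were Mrps18b (0.990), Tiam1 (0.986) and Chmp2a (0.984), and those closest to Il18r1 were Ttc39b (0.983), Srxn1 (0.983) and Dram2 (0.981). Il18rap was closest to Slc35d2 (0.968), Ttc39c (0.967) and Gcnt1 (0.966), Il1rap to Taf4 (0.965), Arhgap12 (0.963) and Maco1 (0.948), and Il1rn to Gpm6b (0.948), Slc17a6 (0.929) and A230072C01Rik (0.928).

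The genes next to the receptors on chromosome 1 did not all move with them in SKG cells. Map4k4, a kinase gene that lies before Il1r2, fell by 1.32 ± 0.27 (SE, limma adjusted p = 0.00892). Il1rl2, which encodes the receptor for IL-36 and lies next to Il1r1, differed by -0.15 ± 0.20 (limma adjusted p = 0.656). Slc9a4, beyond Il18rap, was under the floor. In the transfer comparison Map4k4 differed by -0.14 and Il1rl2 by 0.04 (limma adjusted p = 1 for both), beside the rise of Il1r1. Around Il1rn, Il1f5, Psd4 and Pax8 differed by -0.24, -0.16 and 0.13 between SKG and BALB cells and by -0.06, 0.04 and 0.12 between the transfer groups, none of them called. Around Il1rap, Cldn16, Tmem207 and Gm20319 were under the floor in both comparisons.

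Of 10 listed ligands and soluble regulators 9 were matched to a probe set and 6 of these tested in each comparison, and 0 rose. The symbol without a match, Il36rn, is another name of Il1f5, given above as a neighbour of Il1rn. Il1f5 is not in these counts. It differed by -0.24 between SKG and BALB cells and by -0.06 between the transfer groups, without a call. In SKG cells 1 of the 6 fell, where 10.3% of all probe sets rose and 9.89% fell. This was Il1f10, which encodes IL-38 and lies next to Il1rn. Il1f10 averaged 4.65 in SKG cells, under the floor, and 5.87 in BALB cells, a fall of 1.22 ± 0.25 (SE, limma adjusted p = 0.00965). It was thus tested only because of its BALB level. The median of the 6 was 0.02. Il1b, the secreted IL-1, averaged 5.99 in SKG cells and 5.65 in BALB cells, and Il18 averaged 5.70 in SKG cells and 5.69 in BALB cells, neither of them called (limma adjusted p = 0.325 and 0.989). Between the transfer groups none was called, and the lowest p-values belonged to Il1f6 and Il1f9, genes of the IL-36 group, with differences of 0.44 and 0.28 (limma adjusted p = 1).

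Of 6 measured genes of ligand processing 3 rose and 0 fell in SKG cells, with a median of 0.71, where 10.3% of all probe sets rose and 9.89% fell. The other 3 were not called, with Nlrp3 at 0.35, Pycard at -0.42 and Aim2 at 0.62. Casp1, the protease that matures IL-1β and IL-18, averaged 8.94 in SKG cells and 5.82 in BALB cells and rose by 3.12 ± 0.24 (SE, limma adjusted p = 0.000122). Casp4, an inflammatory caspase of the non-canonical inflammasome, averaged 11.20 in SKG cells and 8.23 in BALB cells and rose by 2.97 ± 0.23 (0.000122). Gsdmd, the pore protein that these caspases cleave, rose by 0.80 ± 0.19 (0.0183), a call lost without normalization (0.0622) and without SKG replicate 2 (0.079) or BALB replicate 2 (0.0565). Between the transfer groups 0 of 6 were called, with Gsdmd at -0.56 and Casp1 at -0.39 (limma adjusted p = 1).

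**Figure D4:**
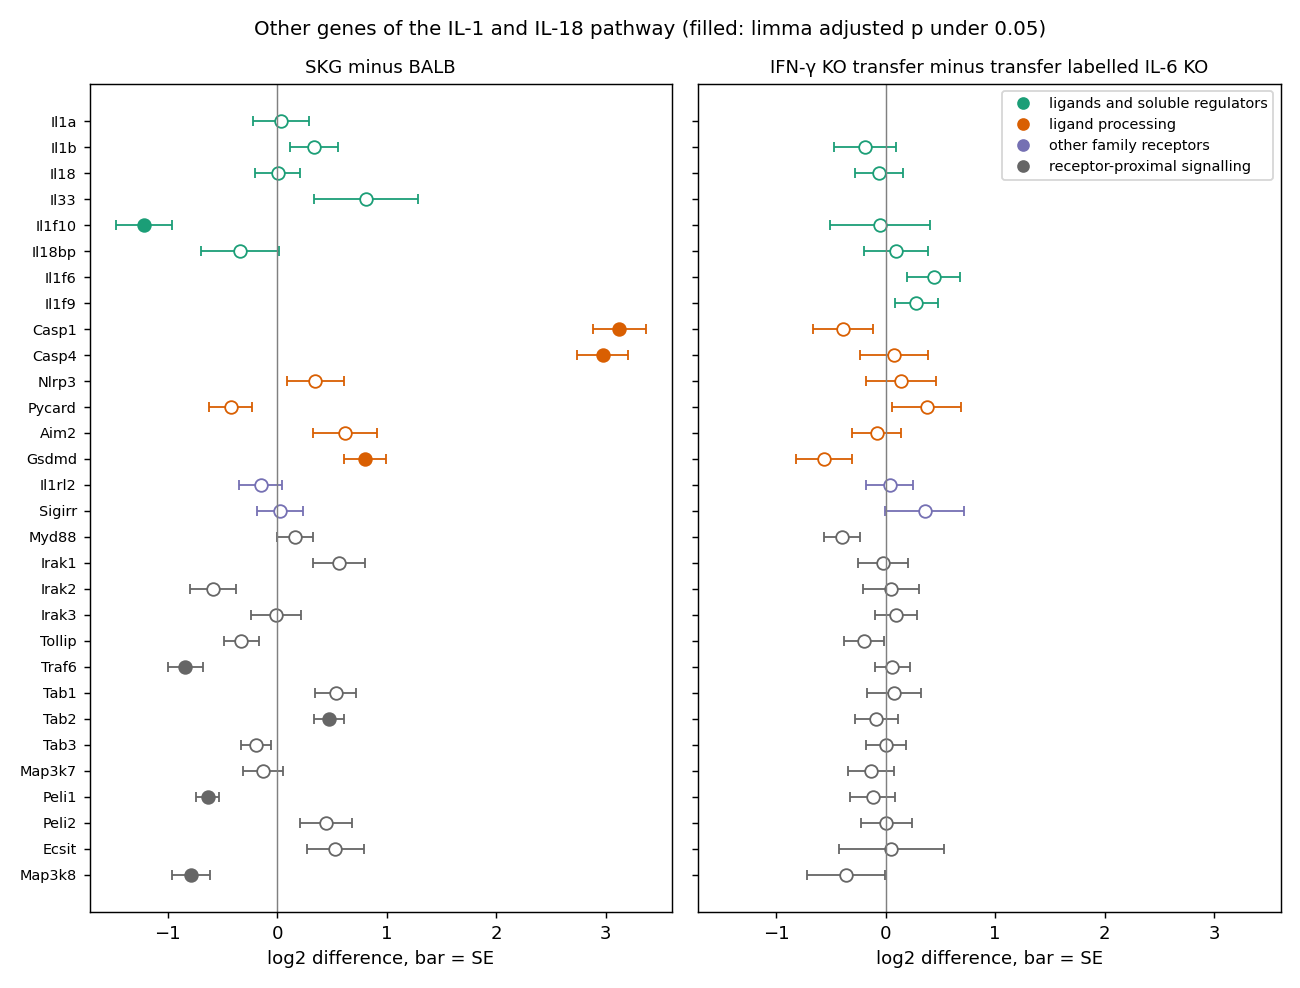
Log2 difference (points) with its SE (bars) for the tested genes of the 4 pathway lists, for SKG minus BALB on the left and the IFN-γ KO transfer minus the IL-6 KO-labelled transfer on the right, with colours for the lists and filled points for limma adjusted p under 0.05. Casp1 and Casp4 are the highest points on the left, at 3.12 and 2.97, and no point is filled on the right.

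Of the other receptors of the family 4 were measured and 2 tested, Il1rl2 and Sigirr, an inhibitory receptor. Sigirr differed by 0.03 between SKG and BALB cells (limma adjusted p = 0.95) and by 0.36 between the transfer groups (limma adjusted p = 1), and 0 of the 2 were called in either comparison. Of 14 genes of receptor-proximal signalling 1 rose and 3 fell in SKG cells, with a median of -0.07, where 10.3% of all probe sets rose and 9.89% fell. Traf6, the ubiquitin ligase downstream of Myd88, fell by 0.84 ± 0.16, the ubiquitin ligase Peli1 fell by 0.63 ± 0.10 and the kinase Map3k8 fell by 0.79 ± 0.17 (SE, limma adjusted p = 0.00709, 0.00319 and 0.0127). Tab2, an adaptor of the kinase TAK1, rose by 0.47 ± 0.13 (limma adjusted p = 0.0357). The Tab2, Map3k8 and Peli1 calls were lost in 9, 6 and 1 of 19 alternatives, and the Traf6 call in none. None of the 14 was called between the transfer groups, with Myd88, the adaptor of the family, at -0.40 (limma adjusted p = 1) and Tollip at -0.20 (limma adjusted p = 1).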

How the data were processed

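RNA of 12 samples was hybridised to 1 array each. The authors deposited one linear intensity per probe set and array; how they were computed and scaled is not given in the sources used here. RNA was isolated with RNeasy and biotin-labelled by in vitro transcription, per the labels' protocols. Of 45101 probe sets the 64 controls were left out. The platform annotation lists 1 gene for 34945 probe sets, several for 932 and none for 9160, and symbols were updated through GRCm38.p6 for 34741. The 12 arrays were quantile normalized together as log2(intensity + 16), and limma 3.58.1 (R 4.3.3, eBayes with an intensity trend, two-sided) was run on the 6 arrays of each comparison, calling probe sets at an adjusted p under 0.05 (Benjamini-Hochberg over all tested). An interaction over 12 arrays tested whether the comparisons differed. The number of arrays limits the precision. The fits were tested on simulated data.

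The members, the lists and the markers were chosen with earlier results of these data known. Named are all member probe sets, the brightest of each gene first. Per pathway list and comparison up to 4 passing genes with the smallest p are named, or up to 2 where none passed. Il1b, Il18, Nlrp3, Pycard, Aim2, Kit, Cd8a, Hdc and Mcpt8 were added after their values were seen. Named too are the genes most like each member over the 12 arrays (5 for Il1r1, 3 for others) and those of the 2 neighbours on either side that have a probe set. Other list genes and gene counts use the brightest probe set of a gene. Some listed genes are not analysed here.

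The labels number replicates 1 to 3 in every group. Deviations from the group mean correlated between same-numbered arrays at 0.15, 0.17 and 0.35 for SKG and BALB and at 0.43, 0.41 and 0.68 for the transfer groups, all over 0.1. Replicates 1 and 2 correlated across numbers about as well, at 0.19 and 0.15 and at 0.42 and 0.38, so this pairing comes from the data and mostly sets replicate 3 apart. Blocked values stand beside a result where they change its call or count. Alternatives were added constants of 1 and 64, no filter and a 60th percentile floor, no normalization, scaling to the 2% trimmed mean, quantile normalization over 6 arrays, the brightest probe set a gene, no trend, a joint fit of 12 arrays, array weights, the replicate block and leaving out each array.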

Additional observations from a re-analysis of the deposited data

Results flagged for a closer look

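Taken with their sign, the differences of 3 member probe sets between SKG and BALB cells were larger than those between the IFN-γ KO transfer and the IL-6 KO-labelled transfer. This is by the interaction test over 12 arrays. Its signed value was 2.84 ± 0.58 for Il18r1 (1421628_at; SE, limma adjusted p = 0.0161). It was 1.69 ± 0.42 for Il1r2 (1419532_at, 0.0391) and 1.68 ± 0.42 for Il18rap (1456545_at, 0.0413). Age, labelled stimulation, labelled FR4 sort, host, tissue and genotype differ together between the comparisons and cannot be told apart. With 3 arrays a group, no group was tested for a single outlying array, and leaving out each array in turn is reported with the processing alternatives.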

How the results depend on the processing

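The count of members that rose in SKG cells, 6, was 4 to 6 in all 19 alternatives. Over all probe sets it was 5446 calls, and 3101 without normalization, 3369 with the brightest probe set of each gene, 8976 with array weights, 9031 with replicates 1 and 2 only, and 2946 to 6477 without each array in turn. Between the transfer groups the member count of 1 was 0 with an added constant of 1, 2 with the replicate block, 3 with replicates 1 and 2 only, and 0 to 1 without each array. Its 12 calls over all probe sets were 7 without the trend, 39 with all 12 arrays in one fit, 300 with the replicate block, 167 with array weights, 725 with replicates 1 and 2 only, and 2 to 36 without each array, the highest without replicate 3 of the IL-6 KO-labelled transfer. Of the difference between the comparisons 3 members passed. With an added constant of 64, with no normalization and with no trend 2 passed each time, and 1 with no filter. With the replicate block, with array weights and with replicates 1 and 2 only 5 passed. Without each array 0 to 4 passed, 0 without SKG replicate 2. The 1211 calls of this difference over all probe sets were 570 without normalization, 4972 with the block, 5614 with array weights, 6212 with replicates 1 and 2 only, and 552 to 2034 without each array. The cause of these moves was not tested. The block changed no other call of a member than those given.

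No called member difference changed sign. Values without a call that did were these. Between the transfer groups, leaving out each array gave -0.22 to 0.43 for Il18r1, -0.616 to 0.083 for Il18rap 1456545_at, -0.15 to 0.15 for Il1rap 1449585_at, -0.19 to 0.33 for Il1rap 1421843_at, -0.027 to 0.385 for Il1rn 1423017_a_at and -0.059 to 0.133 for Il1rn 1451798_at. Array weights gave -0.024 for 1421843_at, -0.17 for 1449585_at and -0.046 for 1451798_at, replicates 1 and 2 only -0.17 and -0.066 for 1449585_at and 1451798_at, and no normalization -0.006 for 1449585_at. For SKG against BALB, leaving out each array gave -0.209 to 0.024 for Il1rap 1449585_at and -0.200 to 0.047 for Il1rn 1423017_a_at, and replicates 1 and 2 only gave 0.017 for Il1rap 1421843_at. For the difference between the comparisons, Il1r1 was 0.17 with an added constant of 1, and Il1rn 1425663_at was -0.015 with 64, -0.053 without normalization and -0.049 scaled to the trimmed mean. Leaving out each array gave -0.28 to 0.25 for 1425663_at, -0.488 to 0.084 for Il1rn 1423017_a_at, -0.246 to 0.073 for Il1rap 1449585_at and -0.504 to 0.016 for Il1rap 1421843_at. Dim probe sets limit the reading: Il1r1 in BALB cells, Il1f10 in SKG cells and 3 member probe sets lay under the floor.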
